A study of Mus musculus with 12 samples.

Results

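RFP- tumour-associated macrophages of B16F10 tumours were set against those of MC38 tumours. They were the 6 libraries labelled RFP- among the 12 of the series, 3 from each tumour. The libraries were bulk RNA-seq of cells sorted from tumours of Arg1-RFP mice, in which a red fluorescent protein reports Arg1, the gene of arginase 1. B16F10 is a mouse melanoma line and MC38 a mouse colon adenocarcinoma line. All sorted cells were CD45+, MHCII+, F4/80+ and CD11b+, and were gated as free of CD90.2, B220, NK1.1, Ly6G and Ly6C. RFP- cells were those without reporter signal. The 6 RFP+ libraries, from tumours of the same lines, are used here only to ask whether the tumour difference depended on the gate. The B16F10 libraries carry the numbers 12, 11 and 3 and the MC38 libraries the numbers 1, 2 and 3. No age, sex, strain background or day of collection is given in the labels used here. The series design names 3 mice without saying which library came from which mouse. The p-values therefore measure the spread between these libraries, some of which may be technical. Both tumours grew from transplanted cells of 1 line each, and a gate on surface proteins does not remove RNA that sorted cells have taken up or carried along.

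Macrophages enter tumours mostly as blood monocytes, and the surroundings set which genes they use. Interferon-driven macrophages make CXCL9, CXCL10 and guanylate binding proteins and present antigen on MHC class II, whereas tissue-repair programmes include mannose receptor, arginase and growth factors. Pigment cell genes such as Pmel, Dct, Tyrp1 and Mlana, which build the melanosome, are not macrophage genes, and in a sort from melanoma they serve as a sign of tumour RNA.

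Levels are FPKM, fragments scaled to transcript length and to the mapped total. Of 24346 gene symbols, 11200 had at least 1 FPKM in at least 3 of the 6 libraries and were tested with limma on log2(FPKM + 1). Differences are B16F10 minus MC38 with their SE, and the threshold was a Benjamini-Hochberg adjusted p under 0.05 over all genes tested. On this scale the change of genes at low FPKM is understated. Of the genes tested, 3688 (32.9%) were higher and 2164 (19.3%) lower in B16F10, 52.2% in all, with a median difference of 0.22 over all genes. The 2 groups did not overlap for 62.7% of the genes tested, with B16F10 higher for 39.6% and MC38 higher for 23.1%. Quantile normalization gave 52.7% higher and 47.3% lower among the genes called, and upper-quartile scaling 53.8% and 46.2%, against 63% and 37% in the values as deposited. The total FPKM was 815591 in B16F10 number 12 and 614875 to 677302 in the other 5 libraries. Read totals are not used here, but the most frequent ratio of low values, which shows what 1 read is worth in FPKM, was 3.67, 3.08 and 3.08 in B16F10 numbers 12, 11 and 3 and 1.13, 1 and 1.09 in MC38 numbers 1, 2 and 3, all relative to MC38 number 2. Low levels were thus less finely resolved in B16F10.

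All 16 genes of the pigment cell list were higher in B16F10, with a median difference of 6.65. Pmel, the structural protein of the melanosome fibril, was at 3057, 2362 and 2053 FPKM in B16F10 numbers 12, 11 and 3 and at 0.993, 1.75 and 2.46 in MC38 numbers 1, 2 and 3. Dct, dopachrome tautomerase, was at 1857, 2832 and 2054 FPKM in B16F10 and at 0.999, 1.22 and 2.2 in MC38. The 3 B16F10 libraries were alike for these genes, and no B16F10 value came near an MC38 value. Tyrp1, which acts beside Dct in melanin synthesis, was at 2104, 2813 and 2183 FPKM against 1.49, 1.51 and 2.81. Mlana, another melanosome protein, was at 1870, 1851 and 1157 FPKM against 0.603, 0.992 and 2.03. The differences were 9.85 ± 0.24 (SE) for Pmel, 9.83 ± 0.23 for Dct, 9.67 ± 0.22 for Tyrp1 and 9.54 ± 0.28 for Mlana, with limma adjusted p between 1.2e-08 and 5.3e-08. The transcription factors of the lineage stood far lower than the melanosome genes. Sox10 was at 154, 95 and 86 FPKM in B16F10 and under 0.1 in each MC38 library. Mitf, which macrophages also use, was at 22.8, 75.9 and 52.9 FPKM against 6.14, 4.28 and 3.94. Ednrb, the endothelin receptor of pigment cells, had the smallest difference of the list, 1.72 ± 0.45. Over the 16 genes, the summed level was 10175, 11455 and 8756 FPKM in B16F10 numbers 12, 11 and 3, and 12.6, 14 and 16 in MC38. This came to 1.25%, 1.86% and 1.42% of the summed FPKM of the B16F10 libraries.

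**Figure D1:**
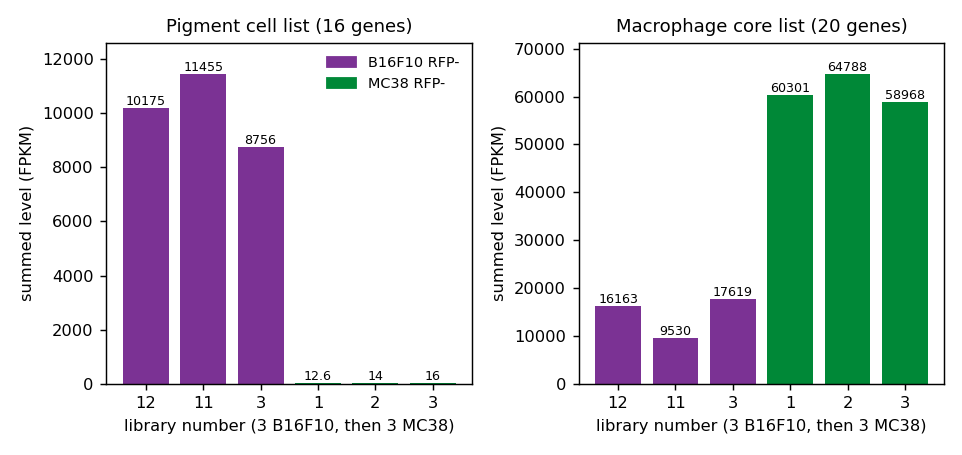
Summed level in FPKM of the 16 pigment cell genes (left) and of the 20 macrophage core genes (right), 1 bar for each RFP- library. The B16F10 libraries hold 8756 to 11455 FPKM of pigment transcripts against at most 16 in MC38, and 9530 to 17619 FPKM of core transcripts against 58968 to 64788.

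Pigment genes share a promoter element, the M-box (TCATGTG), which the lineage factor MITF is known to bind, and 2 of the promoters are printed to show it. In the 250 bases before the transcription start, read from the RefSeq table for GRCm38.p6, 6 of the 10 pigment list genes with an entry held TCATGTG on either strand, against 3.72% of the 27025 symbols in the table. Capitals mark each match on either strand. Tyrp1 (chr4:80833963-80834212, plus strand) has 1 match that begins 47 bases before the start used here, and Dct (chr14:118052247-118052496, minus strand) has 2. The RefSeq gene record of Tyrp1 begins earlier, at 80834123, inside this window and upstream of the match.
Tyrp1: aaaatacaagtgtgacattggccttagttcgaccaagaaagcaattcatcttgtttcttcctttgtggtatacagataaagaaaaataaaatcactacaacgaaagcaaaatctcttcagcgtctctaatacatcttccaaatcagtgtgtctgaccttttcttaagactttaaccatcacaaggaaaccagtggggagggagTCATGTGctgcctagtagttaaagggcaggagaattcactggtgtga
Dct: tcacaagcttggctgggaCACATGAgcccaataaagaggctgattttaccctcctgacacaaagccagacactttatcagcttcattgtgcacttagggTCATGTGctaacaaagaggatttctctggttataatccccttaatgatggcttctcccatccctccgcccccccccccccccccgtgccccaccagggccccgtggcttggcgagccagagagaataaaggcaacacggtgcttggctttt
A match describes these letters only.

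Outside the pigment list, the 12 largest differences upward included those of Ptgds, Car14, Car6, Fkbp6, Tinagl1, Tspan10, Syt4, Atp6v0e2, Chchd10, Gpnmb and Cryab, and ranged from 6.17 (Cryab) to 9.60 (Ptgds). Ptgds, prostaglandin D2 synthase, was at 1454, 1508 and 1158 FPKM in B16F10 and at 0.799, 0.504 and 1.02 in MC38. Gpnmb, a melanosome glycoprotein that lipid-laden macrophages also make, was at 2272, 2131 and 1515 FPKM against 16.1, 39.8 and 23.9. Car14 and Car6 are carbonic anhydrases and Cryab is a small heat shock protein. Each of the 12 was higher in every B16F10 library than in every MC38 library, which the rule that named them required. That they were higher in B16F10, as the pigment genes were, also follows from that rule. How much of them came from tumour RNA was not tested.

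The macrophage core list checked the label of the sort. Its 20 genes were all detected in all 6 libraries, which does not tell what share of each sort was macrophages. Lyz2, lysozyme, was at 4069, 2454 and 5105 FPKM in B16F10 and at 12202, 12062 and 9144 in MC38. Csf1r, the receptor for the growth factor of macrophages, was at 179, 70.6 and 174 FPKM against 563, 602 and 644. Cd68, an endosomal protein, was at 1329, 519 and 951 FPKM against 1084.5, 1167 and 1169, and its difference of -0.39 was not past the threshold. The other 19 were lower in B16F10, with a list median of -2.27 and a lowest value of -3.44 for Cx3cr1, the fractalkine receptor. The summed level was 16163, 9530 and 17619 FPKM in B16F10 and 60301, 64788 and 58968 in MC38. In bulk samples, fewer macrophages in the sort and less RNA per macrophage cannot be told apart. B16F10 number 11, the library with the most pigment transcripts, had the least core transcripts.

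The core genes give a yardstick. Of the genes tested, 51 (0.455%) lay below the range of the core genes, 2968 (26.5%) within it and 8181 (73%) above it. All libraries were also rescaled so that the mean log2 level of the 20 core genes was equal, which asks how a gene moved relative to the core. This shifted the median difference of all genes by 1.82, to 2.05, with 9485 genes (84.7%) higher and 259 (2.31%) lower, 87% in all. The core list itself then had a median of -0.17. The counts below are from the values as deposited unless core scaling is named. Neither is a measure per cell. Leaving out B16F10 number 11 raised the count of genes lower after core scaling to 412.

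Sex-linked transcripts, looked at after their values were seen, gave a second view of host RNA. Eif2s3y, a Y-linked gene, was at 10.7 and 12.9 FPKM in B16F10 numbers 12 and 3 and at 40.5 in MC38 number 3, and under 0.1 in the other 3 RFP- libraries. Xist, the X-inactivation RNA, was at 1.36 FPKM in B16F10 number 11 and at 4.49 and 4.44 in MC38 numbers 1 and 2. Each tumour group therefore held libraries of both patterns. In both patterns the B16F10 level was below the MC38 level, and whether either tumour line adds to these transcripts was not tested.

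Interferon response genes were lower in B16F10, many of them relative to the core as well. All 29 type I interferon response genes tested were lower in B16F10, with a median of -2.82, against a median of 0.22 over all genes and 19.3% of all genes lower. Irf7, the regulator that amplifies interferon production, was at 27.8, 17.7 and 19 FPKM in B16F10 and at 299.7, 311 and 682 in MC38, a difference of -4.18 ± 0.32 (limma adjusted p = 1.27e-05). Ifi44, an interferon-induced gene of uncertain role, was at 1.61, 0.335 and 1.12 FPKM against 19.3, 18.7 and 42.3. Oas3, a sensor of double-stranded RNA from a family of similar genes, was at 1.66, 1.49 and 1.66 FPKM against 20.3, 17.2 and 56.3. Usp18, which dampens interferon signalling, was at 7.33, 13.8 and 6.25 FPKM against 74.7, 78.2 and 170. The groups did not overlap for any of these, and MC38 number 3 was the highest library for all 4. After core scaling 13 of the 29 stayed lower, with a list median of -0.94, while 2.31% of all genes were lower. The count of 13 was 6 without B16F10 number 3 or MC38 number 3, 8 without B16F10 number 12 and 19 without B16F10 number 11.

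All 24 interferon gamma response genes tested were lower in B16F10, with a median of -2.63. Gbp2, a guanylate binding protein, was at 19.5, 28.5 and 29.7 FPKM in B16F10 and at 348, 287 and 210 in MC38, a difference of -3.39 ± 0.24 (limma adjusted p = 7.56e-06). Gbp4 was at 1.26, 5.31 and 3.78 FPKM against 54.6, 64.6 and 58.2. Iigp1, an immunity-related GTPase, was at 8.69, 16.1 and 10.2 FPKM against 190, 162 and 146. The MC38 libraries were higher throughout, by more than the spread within either tumour. Gbp2b was at 0.872, 1.11 and 1.88 FPKM against 105, 91.7 and 60.3, but it is nearly identical to its neighbours and its value is uncertain. Irg1, which makes itaconate, was at 1.75, 13.1 and 3.68 FPKM against 154, 117 and 252. Cxcl9, the T cell attractant induced by interferon gamma, was at 9.89, 7.53 and 8.5 FPKM against 102, 100.5 and 76.6, a difference of -3.28 ± 0.20. Cxcl10, which binds the same receptor, was at 66.3, 95.3 and 37.3 FPKM against 436, 379 and 612, a difference of -2.89 ± 0.32. After core scaling Cxcl9 stayed lower (-1.25, limma adjusted p = 0.000994), and Cxcl10 had a value of -0.78 that was not past the threshold (adjusted p = 0.0851). Of the 24 genes, 12 stayed lower after core scaling (9 to 18 with a library left out) and Nos2 was higher.

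Interferon-responsive promoters often hold GAAA repeated after any 2 bases, which is the core of the interferon-stimulated response element, and 2 are printed as examples with the match in capitals. In the 250 bases before the start, this repeat was found on either strand in 10 of the 22 type I interferon list genes with an entry and in 11 of the 16 interferon gamma list genes with one. Across all symbols in the table the share was 3.46%, and among the 13 core list genes with an entry it was 15.4%. Gbp2 (chr3:142620413-142620662, plus strand) has 1 match 59 bases before the start, on the opposite strand. Oas3 (chr5:120777660-120777909, minus strand) has 1 match 75 bases before the start used here. The RefSeq gene record of Oas3 reaches into this window, to 120777684.
Gbp2: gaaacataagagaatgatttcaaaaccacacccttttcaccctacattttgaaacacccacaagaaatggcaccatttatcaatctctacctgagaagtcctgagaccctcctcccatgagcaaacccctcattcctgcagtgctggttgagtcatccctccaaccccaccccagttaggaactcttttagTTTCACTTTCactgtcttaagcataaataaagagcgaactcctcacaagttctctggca
Oas3: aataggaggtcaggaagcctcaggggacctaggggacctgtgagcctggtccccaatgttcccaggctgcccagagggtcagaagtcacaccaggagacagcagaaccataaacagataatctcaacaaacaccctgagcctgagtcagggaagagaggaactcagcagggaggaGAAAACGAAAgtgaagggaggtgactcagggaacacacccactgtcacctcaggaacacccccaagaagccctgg
The promoters of Irf7 and Cxcl9 held no such letters in this window. For Irf7 the gene record reaches into the window, to 141266499.

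Antigen presentation genes were lower as well. Of 10 MHC class II pathway genes tested, 8 were lower in B16F10 and none higher, with a median of -2.44, and all 16 MHC class I pathway genes were lower, with a median of -1.76. H2-Ab1, a class II chain, was at 2075, 1381 and 3200 FPKM in B16F10 and at 15958, 17137 and 12980 in MC38, a difference of -2.87 ± 0.34 (limma adjusted p = 0.000144). Cd74, the invariant chain, was at 3620, 2519 and 5504 FPKM against 25071, 27160 and 24028. H2-K1, a class I heavy chain, was at 398, 251 and 278 FPKM against 1243, 1382 and 1412. No B16F10 library reached an MC38 library for these 3 genes. H2 genes resemble each other, so reads may be shared between them. After core scaling the class II list had a median of -0.61, with H2-Ab1 (-0.74) and H2-Eb1 (-0.76) still lower, and H2-K1 was at -0.02 (adjusted p = 0.941). These 2 class II calls were the only ones of the list toward lower values, and 2 other genes of the list were higher. The list had 5 lower genes without B16F10 number 3 and 1 without B16F10 number 11. It had none without B16F10 number 12, MC38 number 1 or MC38 number 2. The class I list then had a median of 0.32, of the opposite sign, with 3 genes higher and 1 lower. Over all genes, 84.7% were higher and 2.31% lower after this scaling.

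**Figure D2:**
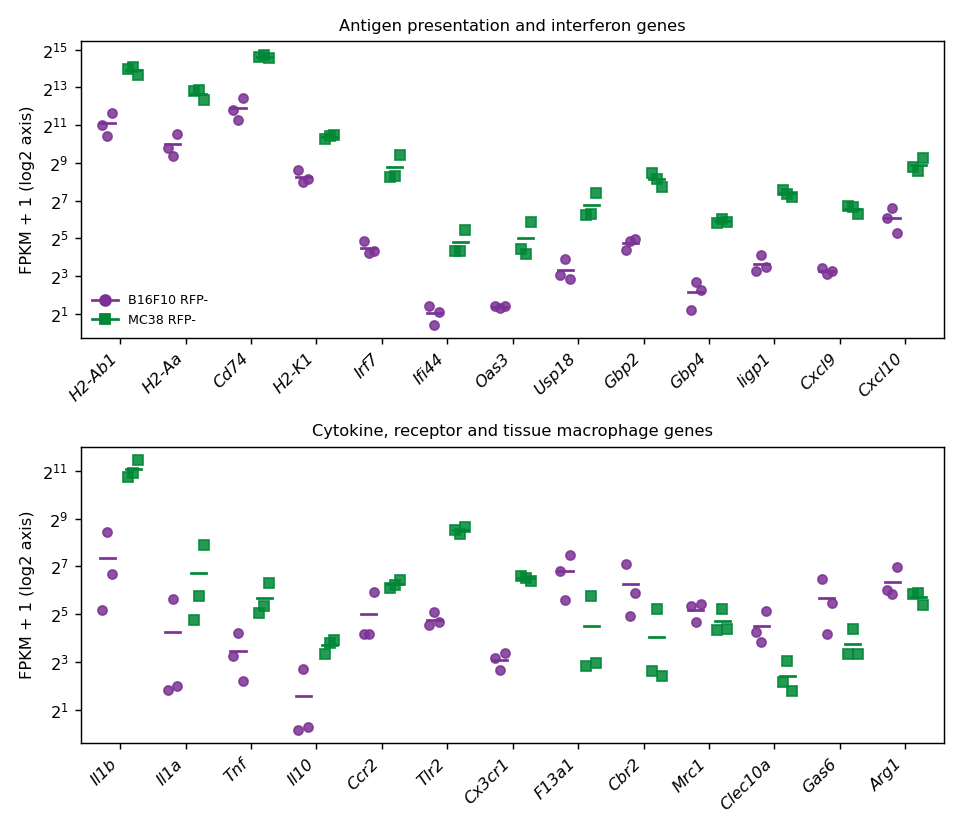
Level of 26 genes as FPKM + 1 on a log2 axis, 1 point for each RFP- library (circles B16F10, squares MC38) and a line at the mean of each group. The antigen presentation and interferon genes (top) show no overlap between the tumours, while Il1a, F13a1, Cbr2, Mrc1, Gas6 and Arg1 (bottom) overlap.

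Cytokine genes were mostly lower in B16F10, 17 of 21 with a median of -1.90. After core scaling the median was -0.15, with 2 genes higher and 3 lower, where 84.7% of all genes were higher and 2.31% lower. The count of lower genes was 10 without B16F10 number 11, and that of higher genes was 4 without B16F10 number 3 and 1 without MC38 number 1 or 2. Il1b, the inflammatory cytokine, was at 34.8, 344 and 102 FPKM in B16F10 and at 1689, 1917 and 2785 in MC38, a difference of -4.26 ± 0.65 (limma adjusted p = 0.000601). Number 11 was the highest of the B16F10 libraries here, although it had the least core transcripts. Tnf was at 8.42, 17.8 and 3.57 FPKM against 32.4, 39.7 and 78.8. Il10, an anti-inflammatory cytokine, was at 0.115, 5.58 and 0.231 FPKM against 8.99, 13 and 14.2. Number 11 thus led the B16F10 libraries for all 3 cytokines. Tnfsf13b, the B cell survival factor BAFF, was at 1.7, 2.88 and 1.29 FPKM against 50.9, 63.2 and 57.7, and stayed lower after core scaling by 2.50 (limma adjusted p = 2.95e-05). Il1b stayed lower after core scaling (-2.14, adjusted p = 0.00714), but Tnf (-0.35) and Il10 (-1.11) did not pass. Tgfb1 was at 2.32, 1.61 and 1.77 FPKM against 3.11, 2.55 and 4.05, and its difference of -0.54 did not pass (adjusted p = 0.0817).

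Chemokine genes went both ways. Of 24 tested, 10 were lower and 4 higher in B16F10, with a median of -0.55. Cxcl14 was at 1.59, 1.09 and 0.583 FPKM in B16F10 and at 40.5, 27.7 and 41.8 in MC38, and Cxcl1, a chemokine for neutrophils, at 1.3, 8.4 and 0.781 against 102, 63.4 and 30.5. Pf4, a platelet and macrophage chemokine, was the reverse, at 696, 280 and 520 FPKM against 86.3, 216 and 105. Its groups did not overlap, but MC38 number 2 came close to B16F10 number 11. Spp1, osteopontin, which is counted in another list, was at 519, 441 and 692 FPKM against 146, 280 and 148, a difference of 1.56 ± 0.28 (limma adjusted p = 0.0015). The count of 4 higher was 2 without B16F10 number 3 or MC38 number 3. After core scaling the chemokine median turned to 1.17, with 13 genes higher and 5 lower, or 8 lower without B16F10 number 11. The median of all genes was then 2.05, with 84.7% of them higher.

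Receptor genes were mostly lower as deposited. Of 14 chemotactic receptors tested, 12 were lower in B16F10 and none higher, with a median of -1.57. After core scaling 4 were higher and 2 lower, with a median of -0.18, and 4 were lower without B16F10 number 11. By this scaling 84.7% of all genes were higher and 2.31% lower. Ccr2, the receptor that brings monocytes in, was at 16.8, 16.9 and 59.2 FPKM in B16F10 and at 68.1, 74 and 84.6 in MC38. B16F10 number 3 stood near the MC38 libraries, and the adjusted p for Ccr2 was 0.0135 with all libraries and 0.0526 without B16F10 number 12. Of 21 Toll-like receptor and inflammasome genes, 15 were lower and none higher, and after core scaling 7 were higher and 2 lower, with 3 lower without B16F10 number 11 or MC38 number 1 and 1 lower without B16F10 number 3. Tlr2, a receptor for bacterial lipoproteins, was at 22.3, 32.6 and 24.3 FPKM against 362, 329 and 399, and was still lower by 1.65 after core scaling (limma adjusted p = 0.000238). Of 17 checkpoint and costimulation genes, 14 were lower and 1 higher, and after core scaling 7 were higher and 3 lower, with 5 lower without B16F10 number 11 and 1 lower without B16F10 number 3. Havcr2, which encodes TIM-3, was at 8.22, 7.79 and 8.94 FPKM against 122, 132 and 107 and stayed lower after core scaling (-1.67), whereas Cd274, which encodes PD-L1, was at 13.6, 23.9 and 20.9 FPKM against 96.9, 88.5 and 94.7 and did not (-0.16, adjusted p = 0.659).

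Complement genes were lower in 12 of 15 cases, with a median of -1.61, and 1 was higher. After core scaling 6 were higher and 3 lower, with a median of 0.51, and 1 was lower without B16F10 number 12. Over all genes the median was then 2.05, with 84.7% higher. Cfb, factor B, was at 34.5, 21.9 and 31 FPKM in B16F10 and at 346, 342 and 594 in MC38. C2, its neighbour in the genome and counterpart in the classical pathway, was the reverse, at 21, 36.7 and 24.2 FPKM against 1.4, 0.751 and 1.06, a difference of 3.75 ± 0.27 (limma adjusted p = 9.53e-06). These 2 genes lie side by side and the strand setting of the counting was not stated. C1qa, a chain of the first complement component, was at 1303, 384 and 623 FPKM against 1989, 2158 and 2243, lower as deposited (-1.65) and at 0.48 after core scaling, where it did not pass.

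Resident-like macrophage genes were called at shares near those of all genes. Of 15 tested, 6 were higher and 3 lower in B16F10, with a median of 0.27, against 32.9% and 19.3% of all genes and their median of 0.22. After core scaling 14 were higher (13 or 14 with a library left out), where 84.7% of all genes were higher. Ednrb, which the pigment cell list also holds, is among the higher genes in both counts. F13a1, coagulation factor XIII A, was at 111, 47.4 and 178 FPKM in B16F10 and at 6.17, 52.8 and 6.84 in MC38, a difference of 2.78 ± 0.73 (limma adjusted p = 0.011). MC38 number 2 lay within the B16F10 range, so the groups overlapped. Igf1, insulin-like growth factor 1, was at 20.3, 9.82 and 12.7 FPKM against 1.59, 3.06 and 1.51. Clec10a, a lectin of the alternative activation list, was at 18.3, 13.5 and 33.8 FPKM against 3.46, 7.12 and 2.47, a difference of 2.09 ± 0.39. For these 2 genes all B16F10 libraries were higher, and MC38 number 2 was the highest of the MC38 libraries. Of 16 alternative activation genes tested, Clec10a was the only 1 higher and 5 were lower, with a median of -0.03. Tgm2 (-3.39) and Klf4 (-2.98) were among the lower genes. After core scaling 9 of that list were higher and 3 lower, with 1 to 4 lower when a library was left out. Mrc1, the mannose receptor, was at 39.6, 24.4 and 41.6 FPKM against 19.2, 36.2 and 20, and its difference of 0.49 did not pass as deposited (adjusted p = 0.185), while after core scaling it was higher (2.53, adjusted p = 2.08e-06).

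Arginine and polyamine genes differed in both directions as deposited. Of 17 tested, 4 were higher and 7 lower in B16F10, with a median of 0.02, and 4 were lower without MC38 number 1. After core scaling 14 were higher and none lower, with a median of 1.92, where the median of all genes was 2.05. Arg1, the gene behind the reporter, was at 62.8, 56.2 and 125 FPKM in B16F10 and at 56, 58.5 and 40.6 in MC38, although all these cells were sorted as RFP-. Its groups overlapped and its difference of 0.57 ± 0.30 did not pass as deposited (limma adjusted p = 0.136), while after core scaling it was higher (2.66, limma adjusted p = 1.55e-06). Nos2, the competing enzyme for arginine, was at 2.48, 2.94 and 3.79 FPKM against 5.02, 7.12 and 4.81, lower as deposited (-0.70, adjusted p = 0.0385). This call was lost when any library but B16F10 number 3 was left out, with adjusted p from 0.0656 to 0.147, and after core scaling Nos2 was higher (1.0). Slc7a1, an arginine importer, was at 16.2, 20.9 and 12.2 FPKM against 3.18, 2.95 and 3.4. Sat1, which breaks down polyamines, was at 348, 274 and 375 FPKM against 950, 1017 and 952. Importer and breakdown enzyme thus differed in opposite directions as deposited, while Sat1 was at 0.57 after core scaling.

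Lipid and matrix genes differed in both directions as deposited. Of 22 lipid-associated genes, 8 were higher and 9 lower, with a median of 0.11, and after core scaling 17 were higher and none lower, or 2 lower without B16F10 number 11 and 1 lower without B16F10 number 3. Over all genes, 84.7% were higher and 2.31% lower after core scaling. Fabp5, a fatty acid carrier, was at 814, 546 and 486 FPKM in B16F10 and at 56.9, 103 and 43 in MC38. Apoe, the apolipoprotein of macrophages, was at 6220, 1935 and 3092 FPKM against 12036, 15337 and 17346. Apoe kept pace with the core (-0.01 after scaling), and Fabp5 did not (5.33). Of 20 matrix remodelling genes, 5 were higher and 10 lower, and after core scaling 8 were higher and none lower, with 13 higher without B16F10 number 12, 3 lower without B16F10 number 11 and 1 lower without B16F10 number 3. Tgfbi, a secreted matrix protein, was at 118, 120 and 211 FPKM against 851, 963 and 981, and Sparc, another matrix protein, at 124, 162 and 86.2 against 35.9, 24.7 and 27.9.

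Immediate early genes, which dissociation of tissue can induce, were lower in 18 of 22 cases and higher in none, with a median of -1.61. Nr4a2 was at 0.879, 7.64 and 1.1 FPKM in B16F10 and at 37, 50 and 31.1 in MC38. Klf2 was at 12.2, 10.4 and 7.3 FPKM against 79, 63.8 and 95.7. After core scaling 7 of the 22 were higher and 4 lower, with 6 lower without B16F10 number 11 and none without B16F10 number 3. By the same scaling 84.7% of all genes were higher and 2.31% lower.

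**Figure D3:**
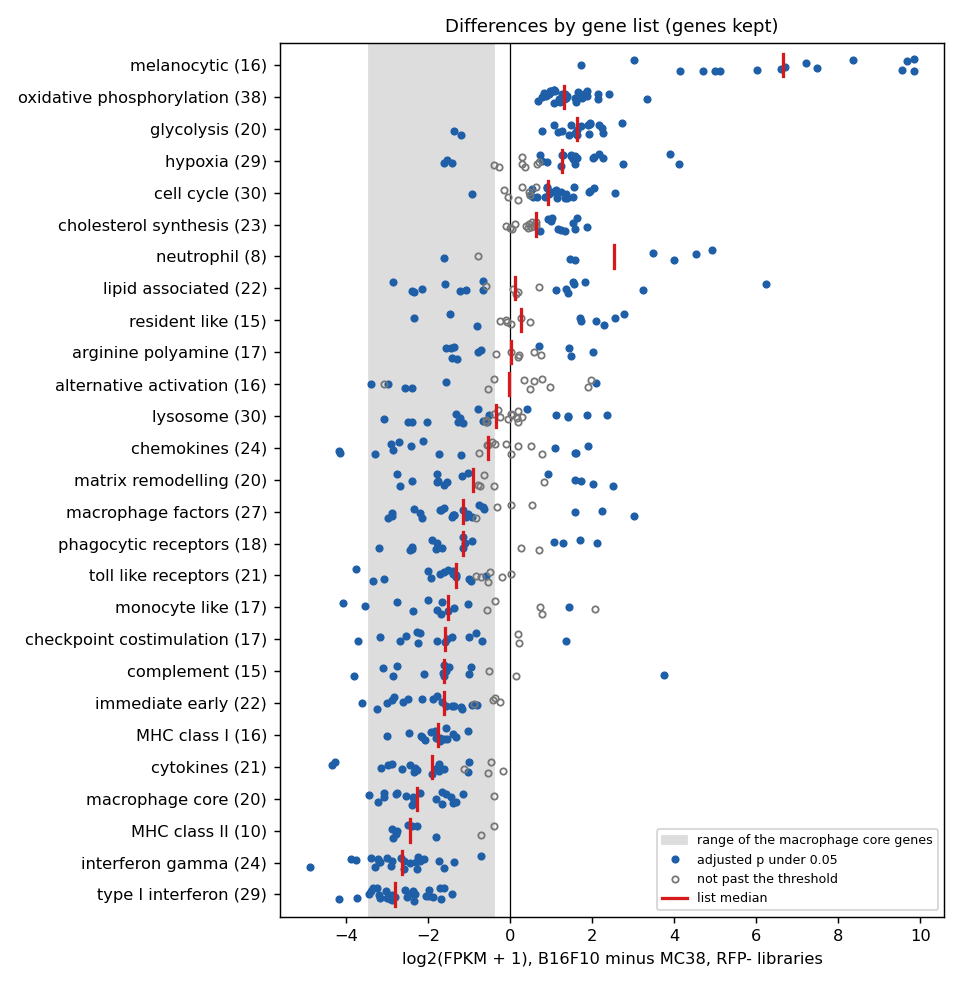
Difference of each gene tested in 27 lists, B16F10 minus MC38 on the log2(FPKM + 1) scale in RFP- libraries, with the number of genes in brackets. Filled points passed the threshold, open points did not, red lines are list medians and the grey band is the range of the macrophage core genes (-3.44 to -0.39); the interferon lists lie in or below the band, and the oxidative phosphorylation list lies wholly above it.

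Metabolic and growth genes were mostly higher in B16F10. All 38 oxidative phosphorylation genes tested were higher, with a median of 1.33, against 32.9% of all genes. Ndufa4, a subunit of the respiratory chain, was at 2405, 2008 and 1689 FPKM in B16F10 and at 226, 177 and 191 in MC38, a difference of 3.35 ± 0.20 (limma adjusted p = 3.67e-06). Of 20 glycolysis genes, 18 were higher, with a median of 1.63. Gapdh was at 9044, 6742 and 5374 FPKM against 1621, 1590 and 1389. The groups did not overlap for either gene. Of 29 hypoxia response genes, 19 were higher and 3 lower, with a median of 1.26. Car9, the hypoxia-induced carbonic anhydrase, was at 90.5, 176 and 99.1 FPKM against 6.63, 7.69 and 6.33. Vegfa, also induced by hypoxia, was the reverse, at 27.2, 73.2 and 50.1 FPKM against 138, 188 and 117. Of 30 cell cycle genes, 22 were higher, with a median of 0.92, and 16 to 24 were higher with a library left out. Ccnb1, the mitotic cyclin, was at 111, 111 and 107 FPKM against 27.6, 25.8 and 29.8. Of 23 cholesterol synthesis genes, 11 were higher and none lower. After core scaling, where 84.7% of all genes were higher, the counts were 38 of 38, 20 of 20, 26 of 29, 29 of 30 and 23 of 23 in the order of these lists, and none was lower. Tumour cells can express these programmes too, and the pigment transcripts were high in the same 3 libraries, so macrophage and tumour sources cannot be told apart in these values.

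Transcripts of other cell types were measured in the same libraries. Neutrophil genes S100a8 and S100a9 were at 73.3, 3.81 and 477 FPKM and at 24.3, 3.49 and 224 in B16F10 numbers 12, 11 and 3, and at most 3.13 and 0.769 in MC38. The B16F10 values spread over a wide range, with number 3 highest and number 11 near the MC38 level. Hba-a1, a haemoglobin chain from a family of near-copies, was at 84, 43.4 and 242 FPKM against 3.35, 6.95 and 3.9. Over the lists, 6 of 8 neutrophil genes tested were higher and 1 lower, and 3 of 4 erythroid genes were higher. The neutrophil list summed to 43.2 to 876 FPKM in B16F10 and 46.8 to 52.9 in MC38, and the erythroid list to 79.6 to 392 and 6.19 to 15. Csf3r, a neutrophil gene that monocytes also use, was lower in B16F10 at 11.9, 5.91 and 21.6 FPKM against 37.8, 33.8 and 41.8. Of the T cell list, 2 of 15 genes were tested and none was called, and Cd3e was at most 0.266 FPKM and Thy1 at most 0.248. Of the B cell list 2 of 10 genes were tested, with 1 higher and 1 lower in B16F10, and Pax5 was at 0 in all 6 libraries. The lower gene was Cd79b, at 16.7, 3.24 and 11.1 FPKM in B16F10 and at 23.1, 19.8 and 33.9 in MC38. Its difference of -1.42 had a limma adjusted p of 0.0284, and the call was lost without MC38 number 1 or 3. The T cell list summed to 3.73 to 11 FPKM in B16F10 and 3.15 to 11.3 in MC38, and the B cell list to 5.96 to 19.1 and 21.5 to 35.5. Of 11 dendritic cell genes tested 1 was higher and 4 lower in B16F10, with 2 lower when any of the 3 MC38 libraries was left out. Of 4 endothelial genes 2 were higher and 2 lower, with the vessel cadherin Cdh5 at most 0.157 FPKM. Of the NK cell list 3 of 10 genes were tested, and Klrk1 was lower in B16F10 by 3.56 while Ncr1 was at most 0.318 FPKM. The NK cell list summed to 5.76 to 11.9 FPKM in B16F10 and 30 to 36.7 in MC38. The part of these cells in the differences above was not tested.

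Some genes that are not typical of macrophages were at higher levels in MC38. Dcn, decorin, was at 35.5, 36.9 and 30.2 FPKM in MC38 and at 0, 0.387 and 0.137 in B16F10. Col3a1 was at 18.4, 9.96 and 27.8 FPKM against 0.0158, 0 and 0.224, and Col6a1 at 21.7, 11.7 and 20.2 against at most 0.00966. Col1a1 was at most 0.162 FPKM in any of the 6 libraries, so the collagen genes of the fibroblast list did not move together. Over that list 5 of the 7 genes tested were lower in B16F10 and 2 higher. It summed to 90.8 to 167 FPKM in B16F10 and 91.3 to 123 in MC38. Most of the B16F10 sum was Sparc, a higher gene at 124, 162 and 86.2 FPKM, against 35.9, 24.7 and 27.9 in MC38. Rhox5, a homeobox gene known from the testis, was at 38.6, 20.4 and 22.3 FPKM in MC38 and at 0, 0.364 and 0 in B16F10. Cd34, a progenitor and vessel surface protein, was at 71.6, 44 and 50.7 FPKM against 0, 0.304 and 0.483. Dcn, Col3a1, Col6a1, Rhox5 and Cd34 were present in all MC38 libraries and near 0 in all B16F10 libraries. Epithelial keratins did not mark MC38: Krt19 was at 0 in all 6 libraries, Krt8 at most 0.0364 and Epcam at most 0.528. Of the epithelial list 2 of 16 genes were tested, with 1 lower in B16F10 and none higher. The lower gene was Cdh1, at 11, 11.5 and 6.38 FPKM in MC38 and at 0.0201, 0.818 and 1.88 in B16F10. Its difference was -2.56 ± 0.39 (limma adjusted p = 0.000537), and it stayed lower after core scaling (-1.15). The epithelial list summed to 2.7 to 4.75 FPKM in B16F10 and 8.26 to 14.3 in MC38. Which cells gave these transcripts was not tested.

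**Figure D4:**
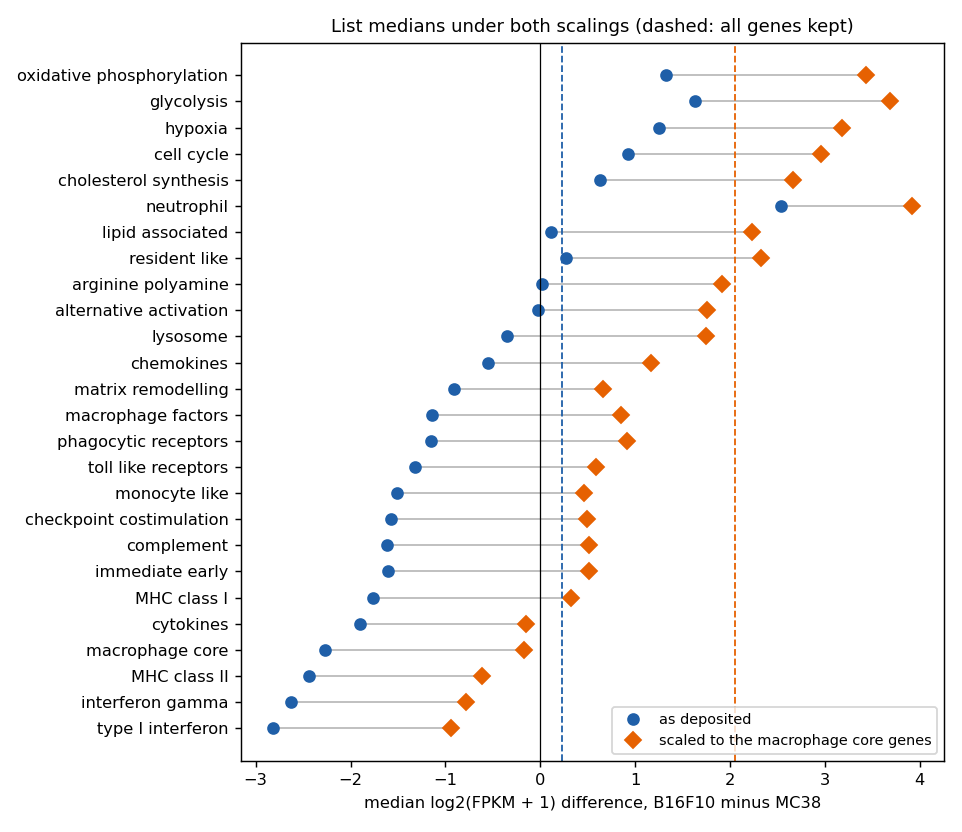
Median log2(FPKM + 1) difference of 26 lists, B16F10 minus MC38, as deposited (circles) and scaled to the macrophage core genes (diamonds), with dashed lines at the medians of all genes tested (0.22 and 2.05). The interferon and MHC class II lists keep a negative median after scaling, and the MHC class I, complement and checkpoint lists do not. The cytokine median (-0.15) is then about that of the core list itself (-0.17).

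The tumour difference in RFP- cells was then set beside that in RFP+ cells. These came from tumours of the same lines as separate libraries, and no label ties libraries of both gates to 1 tumour. In RFP+ cells alone, 4530 genes (40.4%) were higher and 2547 (22.7%) lower in B16F10. Of the 5852 genes called in RFP- cells, 5346 were called the same way in RFP+ cells and 2 the opposite way. The difference between the gates itself was past the threshold for 0 of 11200 genes in limma's 4-group fit, with 436 (3.89%) at an unadjusted p under 0.05. With the library number as a block, since same-numbered libraries of both gates deviated together, 4 genes passed. They were Ctsl, Ass1, Ppbp and the small nucleolar RNA Snord15b. Ctsl, the lysosomal protease cathepsin L, was at 92.2, 85.6 and 100.1 FPKM in RFP- cells of B16F10 and at 166, 189 and 131 in those of MC38, but at 296, 296 and 341 against 232, 292 and 210 in RFP+ cells. The gate difference for Ctsl was -1.14 ± 0.15 (limma adjusted p = 0.0301 with the block and 0.845 without). Ass1, which makes argininosuccinate from citrulline, was at 7.71, 3.39 and 5.31 FPKM against 15.7, 18 and 12.3 in RFP- cells and at 1.41, 0.471 and 0.982 against 16.4, 19.2 and 15.6 in RFP+ cells. Ppbp, a platelet chemokine, was at 1.97, 3.84 and 11.9 FPKM against 1.66, 1.29 and 0.143 in RFP- cells and at 46.9, 162 and 119 against 1.23, 3.16 and 0.0139 in RFP+ cells. For Ppbp the RFP- difference of 1.58 had an adjusted p of 0.0285 and lost the threshold without B16F10 number 3 (0.0769), MC38 number 2 (0.0517) or MC38 number 3 (0.102). The defining platelet genes Gp6, Itga2b and Gp9 were at most 0.479 FPKM in any RFP- library, and their levels in RFP+ libraries are not reported here. Of the platelet list 3 of 10 genes were tested, and 2, Pf4 and Ppbp, were higher in B16F10 RFP- cells and none lower. Whether platelets gave these transcripts was not tested.

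**Figure D5:**
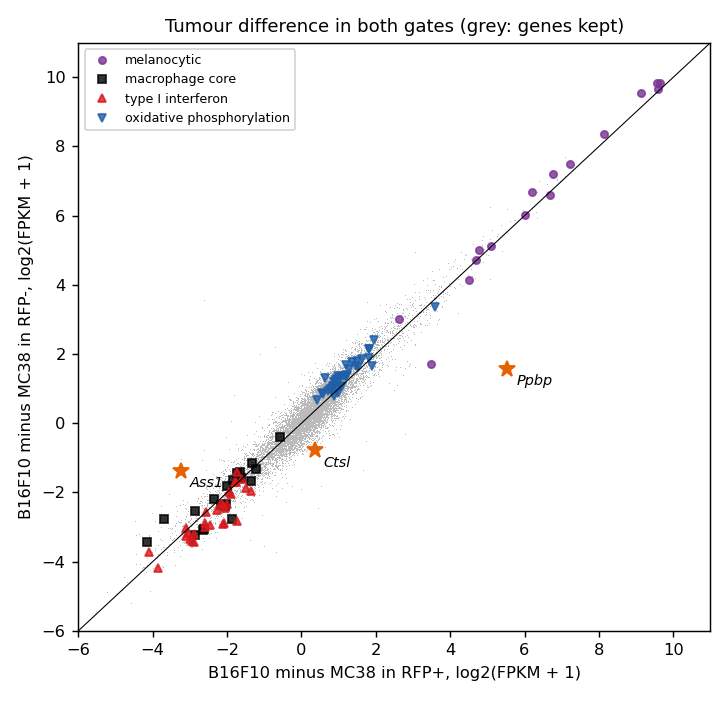
B16F10 minus MC38 on the log2(FPKM + 1) scale in RFP+ (horizontal) and RFP- libraries (vertical), 1 grey point for each gene tested, with 4 lists in colour, 3 genes as stars and a line where both are equal. The lists follow the line with scatter, apart from Ednrb of the pigment list, and Ppbp, Ass1 and Ctsl lie off it. The type I interferon median was -2.82 in RFP- and -2.16 in RFP+ libraries. Of the core genes, Itgam was at -2.76 and -1.86 and Cx3cr1 at -3.44 and -4.16 in the same order.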

How the data were processed

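Expression was measured by bulk RNA-seq of sorted cells, with TRI Reagent RNA, SMART-Seq HT cDNA and Nextera XT libraries, per the labels. The authors deposited 1 FPKM table for each library, the unit per the file headers. The submitters' processing notes name Cuffdiff 2.2.1, SAMtools 0.1.18, Bowtie2 2.2.8 and TopHat2 2.1.1, and mm10 as the build. What annotation, strand setting, read filters and scaling the authors chose is not given in the sources used here. FPKM are not counts, so a count model was not used, and the 3 libraries of a group set the precision.

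The 6 RFP- libraries were grouped by their labels. Symbols with at least 1 FPKM in at least 3 of them were kept, with a pseudocount of 1, and the files held 0 repeated symbols. Tests were two-sided, in R 4.3.3 with limma 3.58.1 (trended eBayes, 4 residual degrees of freedom), and the gate difference used all 12 libraries. Scripts were tested on simulated data. Tables and plots used Python 3.11.15, numpy 2.4.6, pandas and matplotlib 3.10.9.

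Core scaling divided the FPKM of each library by a factor set from how far its mean log2 level of 20 macrophage core genes lay from the mean of the libraries. The members, lists and tests were chosen with earlier results of these data known. Genes were named by rule: fixed genes of interest, the 12 largest differences in each direction with at least 5 FPKM in the higher group and no overlap, up to 4 members of each list in each direction, all pigment genes, and the genes of the gate difference. Sex-linked genes and markers near 0 were added after their values were seen, as were Lyz2, Csf1r and Cd68. Library numbers stand in both gates. Deviations from the group means correlated at r = 0.239 to 0.473 in the 6 same-numbered pairs and at -0.314 to 0.0343 otherwise, so the number was used as a block for the gate difference. The RFP- groups share only number 3, so their comparison was fitted without a block, and a random block over all 12 libraries was a further fit. Further fits changed the pseudocount, filter, normalization, model and libraries. The promoter table gives GRCm38.p6, the same assembly as mm10. Some genes that the rule names are not reported here.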

Additional observations from a re-analysis of the deposited data

Results flagged for a closer look

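The tumour difference differed between the gates for 4 genes once the library number entered as a block, by limma's interaction test. It was -3.96 for Ppbp and -1.9 for Snord15b (both adjusted p = 0.0295), and 1.86 for Ass1 and -1.14 for Ctsl (both adjusted p = 0.0301), each as RFP- minus RFP+ on the log2 scale. Without the block none of the 4 passed, with an adjusted p of 0.883 for Ppbp and Snord15b and 0.845 for Ass1 and Ctsl. Snord15b was listed at 0 in all 6 B16F10 libraries, so its value rests on the MC38 libraries, which were at 9.3, 2.38 and 2.56 FPKM in RFP- cells and at 1.37, 0 and 0 in RFP+ cells.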

How the results depend on the processing

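The counts of genes higher and lower in B16F10 (3688 and 2164) kept within 1.5 times under the other pseudocounts and filters, quantile and upper-quartile scaling, array weights, the fits without a variance trend and those of all 12 libraries with or without the random replicate block (4275 and 2509 with it). They were 788 and 603 when a log2 difference of at least 1 was tested, and 9485 and 259 after core scaling. With a library left out they ranged from 2953 to 3862 and from 1688 to 2248, and after core scaling from 9076 to 9878 and from 186 to 412, the highest without B16F10 number 11. For the gate difference, the fixed replicate block gave 1 gene more positive and 3 more negative in RFP-, array weights 4 and 1, and no filter 0 and 1. Leaving out a library gave 0 and 0 to 1, with the single gene without B16F10 RFP- number 11 or MC38 RFP+ number 2.

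Core scaling turned the sign of Tgfb1 (0.96), Vegfa (0.48), Ccr2 (0.56), C1qa (0.48), Nos2 (1.0), Sat1 (0.57), Arg2 (0.41), Ass1 (0.52), Csf3r (0.40) and Ctsl (1.33). It turned the medians of the MHC class I (0.32), chemokine (1.17), checkpoint (0.49), complement (0.51), monocyte-like (0.46), matrix (0.66), lysosome (1.74), immediate early (0.52), phagocytic receptor (0.91), Toll-like receptor (0.59), macrophage factor (0.85) and dendritic (0.93) lists. Each of these list medians was below the core-scaled median of all genes, 2.05. Other medians that turned were fibroblast without the filter (0.0337), stress response under quantile (-0.0491) and upper-quartile scaling (-0.0447), and oxidative stress under the latter (-0.0749). Of 137 genes past the threshold that were followed singly, 17 lost it after core scaling with their sign kept. Of those whose sign turned, Vegfa, Ccr2, C1qa, Arg2, Ass1 and Csf3r lost it too (limma adjusted p 0.152 to 0.339). Without the filter, with more genes tested, 12 lost it. In at least 1 fit without a library 7 did (Cbr2, Ccl6, Ccr2, Gas6, Il1a, Nos2 and Ppbp, adjusted p 0.0517 to 0.147). The causes were not tested. Depth limits genes near 0 FPKM, more so in B16F10, where 1 read was worth about 3 times as much FPKM.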

Other observations

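Stress, iron and monocyte genes were measured as well. Trib3 and Asns, targets of the integrated stress response, were higher in B16F10. Trib3 was at 174, 64.3 and 45.9 FPKM in B16F10 numbers 12, 11 and 3 and at 11.8, 9.64 and 8.73 in MC38 numbers 1, 2 and 3. Asns was at 409, 301 and 181 FPKM against 82.5, 40.9 and 46. Number 12 was the highest library for both, and the groups did not overlap. Of the 18 stress response genes tested 7 were higher and 6 lower, with a median of 0.17. After core scaling 17 were higher and none lower, where 84.7% of all genes were higher. Hmox1, which breaks down heme, was at 399, 217 and 285 FPKM against 127, 95.3 and 96.9, and Tfrc, the transferrin receptor, at 60.2, 81.8 and 72.7 against 13.5, 11.6 and 11.8. Of the 17 monocyte-like genes tested 1 was higher and 11 lower, with a median of -1.51 (3 higher without B16F10 number 11 and none without number 3), and after core scaling 6 were higher and 3 lower. Fpr1, a receptor for bacterial peptides, was at 0.754, 0.841 and 5.98 FPKM against 20.9, 19.3 and 28.9 and stayed lower after core scaling (-1.39, limma adjusted p = 0.0156).

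Cd72, an inhibitory receptor known from B cells and also found on macrophages, was at 85.4, 49.1 and 61.9 FPKM in B16F10 and at 1121, 1013 and 1523 in MC38, a difference of -4.21 ± 0.24 (limma adjusted p = 2.95e-06). It stayed lower after core scaling (-2.10, limma adjusted p = 3.82e-06). F11r, a junction adhesion molecule, was at 8.61, 5.98 and 8.43 FPKM against 156, 145 and 164 and also stayed lower (-2.16). For both genes every MC38 library was higher than every B16F10 library, which the rule that named them required.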
